A study of Rattus norvegicus with 6 samples.

Results

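The genes described here are the 3 chemokines that bind the receptor CXCR3 (Cxcl9, Cxcl10 and Cxcl11), the receptor gene Cxcr3 itself, and 4 further chemokine genes listed with them (Cxcl17, Ccl5, Ccl22 and Cxcl16). They are 8 of the 18166 genes measured by a probe set that names that gene alone, and each of the 8 had 1 such probe set. The 8 were chosen by their chemokine or receptor role and by their log2 difference between SAH and sham arrays, which was already known, so their own differences are given as a description, with a standard error (SE) and no test. The samples were cerebral arteries of male rats. In the first group, 3 arrays (numbers 1, 4 and 5) measured vessels 6 hours into a subarachnoid haemorrhage (SAH), in which blood enters the cerebrospinal fluid. In the second group, 3 arrays (numbers 6, 7 and 8) measured vessels of sham-operated rats, whose time after surgery the labels leave out. The labels do not say how the bleed was made, which strain and age were used, or whether each array stands for a separate animal, so p-values measure a spread between arrays that may be technical. All values are log2 values from Affymetrix arrays.

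CXCR3 is a receptor of activated T lymphocytes and natural killer (NK) cells, which follow its ligands CXCL9, CXCL10 and CXCL11 into inflamed tissue. The genes for these ligands are induced by interferons: Cxcl9 is known mainly as a target of interferon gamma, while Cxcl10 and Cxcl11 also respond to type I interferons, and NF-kappaB acts together with interferon signals at Cxcl10. CCL5 attracts leukocytes through receptors that include CCR1 and CCR3, CCL22 acts through CCR4, and CXCL16 is a membrane-bound chemokine whose receptor is CXCR6. CXCL17 is known mainly from mucosal epithelium, and its receptor is disputed.

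The 3 CXCR3 ligand genes stand next to each other on rat chromosome 14, and the 250 bases before each start are printed to show which interferon and NF-kappaB motifs each holds. The sequences are those of RefSeq on the GRCr8 assembly, read 5′ to 3′ on the plus strand, at chr14:16006916-16007165 for Cxcl9, chr14:15988816-15989065 for Cxcl10 and chr14:15973478-15973727 for Cxcl11. Capitals mark matches to 3 motifs searched on both strands: the core of the interferon-stimulated response element (ISRE), GAAANNGAAA, the gamma-activated site (GAS), TTCNNNGAA, and the NF-kappaB site.
Cxcl9: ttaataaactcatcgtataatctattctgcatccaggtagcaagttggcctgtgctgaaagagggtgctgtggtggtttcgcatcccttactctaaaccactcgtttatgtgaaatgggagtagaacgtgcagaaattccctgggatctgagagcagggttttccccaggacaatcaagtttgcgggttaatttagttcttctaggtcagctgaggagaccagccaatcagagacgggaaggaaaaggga
Cxcl10: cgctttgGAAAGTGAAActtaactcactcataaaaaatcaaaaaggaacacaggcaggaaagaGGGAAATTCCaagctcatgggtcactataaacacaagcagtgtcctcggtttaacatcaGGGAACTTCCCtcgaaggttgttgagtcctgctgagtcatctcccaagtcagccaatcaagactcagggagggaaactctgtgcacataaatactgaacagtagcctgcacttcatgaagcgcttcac
Cxcl11: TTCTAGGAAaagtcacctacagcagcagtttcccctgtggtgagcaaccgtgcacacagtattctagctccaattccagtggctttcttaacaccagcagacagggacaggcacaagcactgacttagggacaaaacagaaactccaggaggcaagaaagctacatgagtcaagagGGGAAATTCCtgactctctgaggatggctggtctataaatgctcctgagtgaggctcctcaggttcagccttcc

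Cxcl10 held the ISRE core at bases -243 to -234 from its start, read as GAAAGTGAAA. It also held an NF-kappaB match at -187 to -178, read as GGGAAATTCC, and a pair of overlapping matches between -128 and -118, on opposite strands. Cxcl11 held a GAS match at -250 to -242, read as TTCTAGGAA, and an NF-kappaB match at -74 to -65 with the same letters, GGGAAATTCC, as in Cxcl10. The window of Cxcl9 held none of the 3 motifs, and neither did those of Cxcr3, Cxcl17, Ccl22 and Cxcl16. Over all 27457 promoter windows of this length, 3.29% held the ISRE core, 7.52% the GAS and 6.41% the NF-kappaB site. A match describes letters in the window and is not a measured site.

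The 6 arrays had median log2 values between 7.31 and 7.37 and pairwise correlations of at least 0.970 over probe sets (probe sets are no replicates). The smooth muscle gene Myh11 read between 12.51 and 13.04 and the endothelial gene Cdh5 between 10.93 and 11.77, both far above the array medians, so markers of an arterial wall were present. Of 5 smooth muscle markers 1 fell, where 0.33% of all genes did. It was Smtn, lower by 1.18 on the log2 scale (SE 0.13; limma adjusted p = 0.0197). Its call ended with any array left out other than SAH array 1 or sham array 8. All 5 had SAH values below all sham values, but the share of all genes that did was not counted, so this number cannot be weighed. None of the 5 differences was above 0, where 47.3% of all genes had one above 0, and their median was -0.26. The part of this shift in the results below was not tested. No endothelial marker of 7 was called (limma; 3 at an unadjusted p under 0.05, where 18.6% of all genes had one). The same share belongs beside each such count below. Of the 7 endothelial differences 2 were above 0, and the median was -0.29. Cdh5, named above, was among those 2, at 0.61 ± 0.11 (SE; limma adjusted p = 0.0776). In whole arteries, more cells of a type and more RNA per cell cannot be told apart.

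Cxcl9 read 11.11, 12.56 and 12.44 in SAH arrays 1, 4 and 5, against 7.93, 8.44 and 8.06 in sham arrays 6, 7 and 8. It stood near the middle of all genes in sham arteries and among the brightest after SAH: its lowest sham reading was at percentile 49.3 of the genes on that array and its highest SAH reading at percentile 99.3. The means were 12.04 ± 0.81 in SAH and 8.14 ± 0.27 in sham arteries (SD, n = 3 each), a difference of 3.89 ± 0.38 (SE) or 14.9-fold, which ranked 1 among all 18166 genes. SAH array 1 was 1.34 below the next lowest SAH array, and even so lay 2.66 above the highest sham array.

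Cxcl10 read 13.56, 13.62 and 13.75 in the SAH arrays, against 12.52, 12.42 and 12.87 in the sham arrays. The groups did not overlap, and the SAH arrays lay closer together, with means of 13.64 ± 0.10 in SAH and 12.60 ± 0.24 in sham arteries (SD, n = 3 each). The difference was 1.04 ± 0.14 (SE), or 2.06-fold. This gene was already bright in sham arteries, where its lowest reading was at percentile 99.2, and array values that near the top of the scale compress differences.

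Cxcl11 read 13.43, 13.73 and 13.67 in the SAH arrays, against 11.84, 11.79 and 12.49 in the sham arrays. Sham array 8 was the highest of its group and still 0.94 below the lowest SAH array. The means were 13.61 ± 0.16 and 12.04 ± 0.39 (SAH and sham, SD, n = 3 each), a difference of 1.57 ± 0.20 (SE) or 2.97-fold. Its lowest sham reading was at percentile 98.0 of the genes on that array, so it too was bright without the bleed.

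The receptor gene did not share this pattern. Cxcr3 read 7.58, 7.38 and 7.16 in the SAH arrays, against 7.31, 7.05 and 7.19 in the sham arrays. The groups overlapped, and SAH array 5 lay below sham arrays 6 and 8. The difference was 0.19 ± 0.14 (SE), and the gene was above the array median on 2 of the 6 arrays, while the other 7 genes were above it on all 6. The name co-induced therefore does not describe Cxcr3 in these arrays.

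Cxcl17 read 10.82, 10.88 and 10.19 in the SAH arrays, against 8.39, 8.19 and 8.07 in the sham arrays. Here SAH array 1 was among the high ones and SAH array 5 the lowest of its group, unlike Cxcl9, and the gap between the groups was 1.80. The means were 10.63 ± 0.38 in SAH and 8.22 ± 0.16 in sham arteries (SD, n = 3 each), and the difference of 2.41 ± 0.20 (SE), or 5.32-fold, ranked 22 among all genes. Epcam, a defining epithelial gene, was dim on every array, between 5.15 and 5.23 in SAH and between 5.07 and 5.19 in sham arteries. The epithelial list had no called gene among 4 measured (limma; 1 at an unadjusted p under 0.05). That gene was the keratin gene Krt18, at 7.12, 7.18 and 8.37 in the SAH arrays, against 6.56, 6.11 and 6.70 in the sham arrays, 2.14-fold higher in SAH arteries without overlap (log2 SE 0.35; limma adjusted p = 0.221). Krt8 and Cdh1 of the same list went the other way, by -0.26 ± 0.25 and -0.31 ± 0.36 (SE; limma adjusted p = 0.706 and 0.755). Their groups overlapped, and Cdh1 was above the array median on all 6 arrays.

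Ccl5 read 10.89, 11.75 and 11.52 in the SAH arrays, against 8.98, 8.85 and 9.97 in the sham arrays. Sham array 8 stood above the other sham arrays and the groups were still 0.92 apart. The means were 11.39 ± 0.44 in SAH and 9.27 ± 0.62 in sham arteries (SD, n = 3 each), a difference of 2.12 ± 0.34 (SE) or 4.35-fold. Ccl22 read 9.79, 10.38 and 10.67 in the SAH arrays, against 8.15, 7.88 and 8.74 in the sham arrays. Again sham array 8 was the highest of its group, with a gap of 1.05 to SAH array 1. Its means were 10.28 ± 0.45 in SAH and 8.25 ± 0.44 in sham arteries (SD, n = 3 each), a difference of 2.03 ± 0.29 (SE) or 4.07-fold.

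Cxcl16 read 12.99, 12.98 and 13.06 in the SAH arrays, against 12.64, 12.72 and 12.70 in the sham arrays. These were the tightest groups of the 8 genes, with an SD of 0.04 in each, and they did not overlap although the difference was only 0.32 ± 0.09 (SE), or 1.25-fold. The gene was bright in both groups, between percentiles 99.5 and 99.7 on every array.

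**Figure D1:**
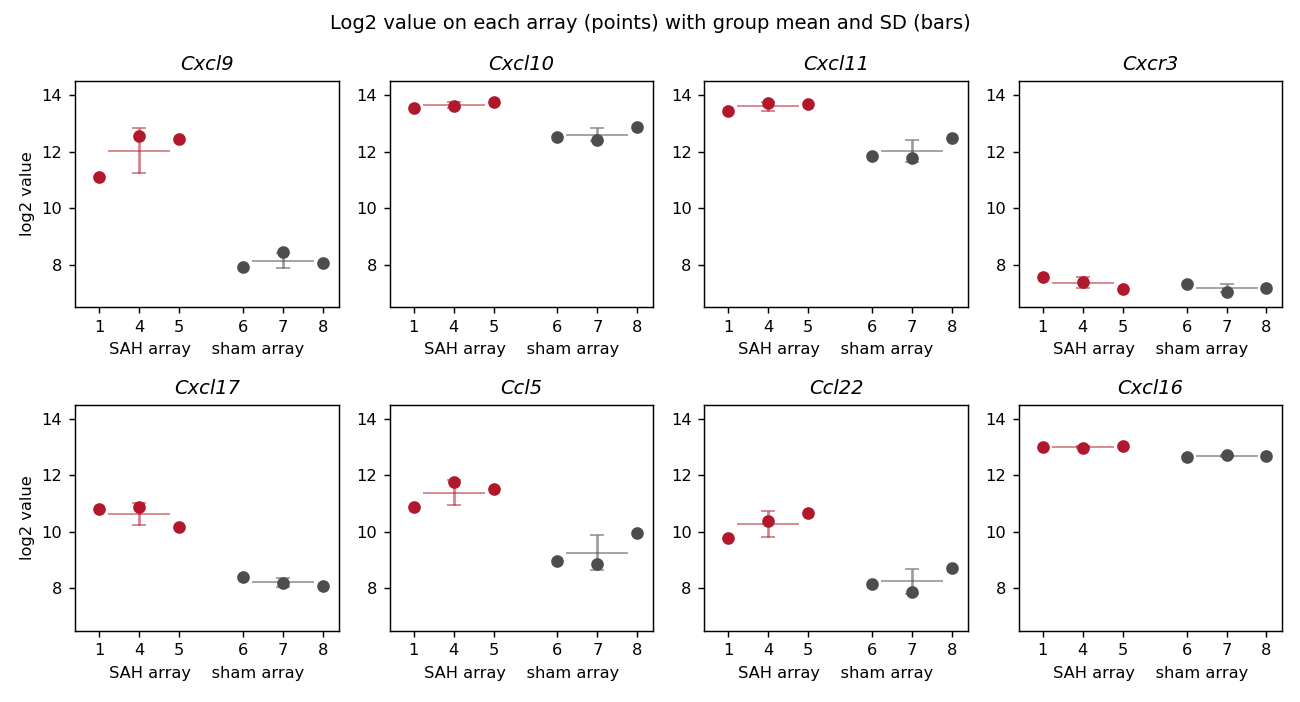
Log2 value (y axis) of the 8 genes on each of the 3 SAH arrays (red, left) and 3 sham arrays (grey, right), with the group mean and SD as bars. The groups are apart for 7 genes and overlap for Cxcr3, and Cxcl9 has the widest separation, 3.89 between the means.

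Of the 8 genes, 7 had SAH values above all sham values, where 11.4% of all genes did, and 1 overlapped. In limma's fit across all probe sets, 5 of the 8 (Cxcl9, Cxcl10, Cxcl11, Cxcl17 and Ccl22) passed an adjusted p under 0.05 in the higher direction, where 0.963% of all genes did. None passed in the lower direction, where 0.33% of all genes did. Since the 8 were picked with this contrast in view, neither share is evidence about them. The median difference over the 8 was 1.80, beside -0.01 over all genes. The number past the threshold changed with the arrays kept. It was 1 (Cxcl17) when array 4 or 5 of the SAH group or array 6 or 7 of the sham group was left out. It was 6, with Ccl5 added, when SAH array 1 or sham array 8 was. Over all genes 235 passed with all arrays, and 41 and 59 without SAH array 4 or 5. Without sham array 6 or 7 there were 29 and 55, and without SAH array 1 or sham array 8 there were 670 and 95. Relative to the sham means, the median of the 8 genes was 1.46 in array 1, 1.91 in array 4 and 1.80 in array 5 of the SAH group. In the sham group it was -0.09 in array 6, -0.16 in array 7 and 0.14 in array 8. SAH array 1 was the lowest SAH array for 5 of the 8 genes, and sham array 8 the highest sham array for 4.

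The profile of a gene was taken as its 6 log2 values less its sham mean, and likeness as the root mean square distance between profiles over the 6 arrays. The 5 genes nearest to Cxcl9 were all known interferon-induced genes: Rsad2 (viperin), at a distance of 0.35, Ifgga4l (an interferon-inducible GTPase) at 0.40, Zbp1 (a nucleic acid sensor) at 0.50, and Cmpk2 (a nucleotide kinase) and Isg15 (a ubiquitin-like modifier) at 0.54 each. Over its sham mean Cxcl9 stood at 2.97, 4.42 and 4.30 in the SAH arrays, and Rsad2 at 3.21, 3.84 and 3.78. The difference between SAH array 1 and the others was wider for Cxcl9 than for its nearest gene. Cxcl11 ranked only 108 and Cxcl10 only 300 in nearness to Cxcl9, at 1.71 and 2.08, with smaller differences in all 3 SAH arrays.

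The genes nearest to Cxcl10 were of mixed kinds. They were Glp2r (a gut peptide receptor) at 0.09, Plin2 (a lipid droplet protein) and Gtpbp1 at 0.10 and 0.11, the neuropeptide gene Npb at 0.11, and Lgals3bp (a secreted galectin-binding protein) at 0.14. Those nearest to Cxcl11 were Gbp7 (a guanylate-binding protein) at 0.13, Endov (an endonuclease) at 0.16, Vcan (versican) at 0.17, and Ripk3 (a kinase of necroptosis) and the MHC class I gene RT1-CE4 at 0.18 each. All these distances are descriptions over 6 arrays, in which genes of like size of difference come out near each other.

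**Figure D2:**
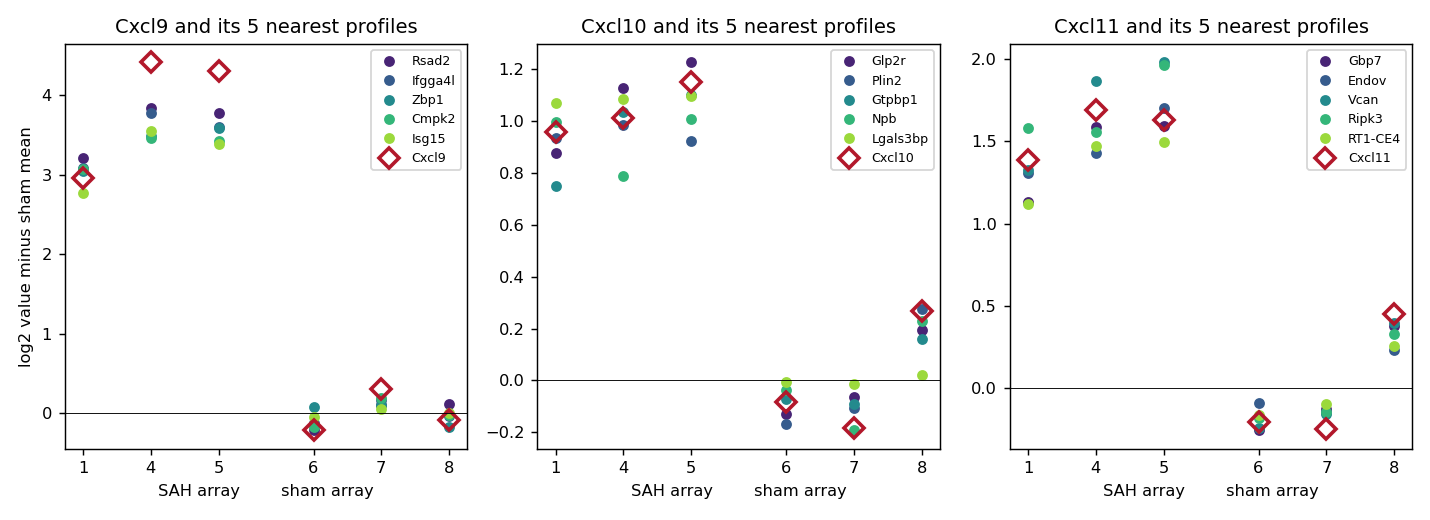
Log2 value less the sham mean (y axis) on the 3 SAH and 3 sham arrays (x axis) for Cxcl9, Cxcl10 and Cxcl11 (open red diamonds) and the 5 genes with the nearest profile to each (filled points). Cxcl9 lies above its 5 nearest genes in SAH arrays 4 and 5, at 4.42 and 4.30, and among them in SAH array 1, at 2.97.

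None of the measured chromosomal neighbours of the 8 genes passed the test, though some beside Ccl5 differed in the same direction. Neighbours were the 5 protein-coding genes on each side in the GRCr8 gene order, a choice made after the values of the 8 were known. Of 60 neighbours 49 were measured, with 0 past limma's adjusted p of 0.05. Of these 49, 8 had an unadjusted p under 0.05, where 18.6% of all genes had one. On chromosome 14 the order runs Nup54, Art3, Cxcl11, Cxcl10, Cxcl9, Sdad1 and Naaa. Art3, an ADP-ribosyltransferase family gene next to Cxcl11, differed by 0.55 ± 0.18 (SE; limma adjusted p = 0.239), Sdad1, next to Cxcl9, by 0.21 ± 0.10 (0.419), and Naaa, a lipid amidase gene, by -0.71 ± 0.23 (0.232). The large differences at this place were those of the 3 ligand genes, 1.57, 1.04 and 3.89 in the order of the chromosome.

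Around Ccl5 on chromosome 10 the nearest genes were less quiet. Heatr9, next to it on one side, read 7.44, 8.20 and 7.70 in the SAH arrays, against 6.45, 6.58 and 6.78 in the sham arrays. Its groups did not overlap, and the difference of 1.17 ± 0.20 (SE) had a limma adjusted p of 0.0671. On the other side Ccl9, a CC chemokine, read 9.66, 9.95 and 9.61 in the SAH arrays, against 8.74, 6.77 and 8.29 in the sham arrays, a difference of 1.80 ± 0.47 (SE; limma adjusted p = 0.157) with sham arrays far apart. Heatr9 passed with dim probe sets left out, with trend and robust eBayes and with array weights, and Heatr9 and Zmynd15, a neighbour of Cxcl16, passed without SAH array 1. Only the SAH values of Heatr9 lay above the array medians. It was therefore kept by the filter for dim probe sets through the group where it was high, and that call adds no support. Beside Ccl22 on chromosome 19 stand the chemokine genes Cx3cl1 and Ccl17, at 0.00 ± 0.14 and -0.25 ± 0.12 (SE; limma adjusted p = 0.995 and 0.414), against 2.03 for Ccl22.

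**Figure D3:**
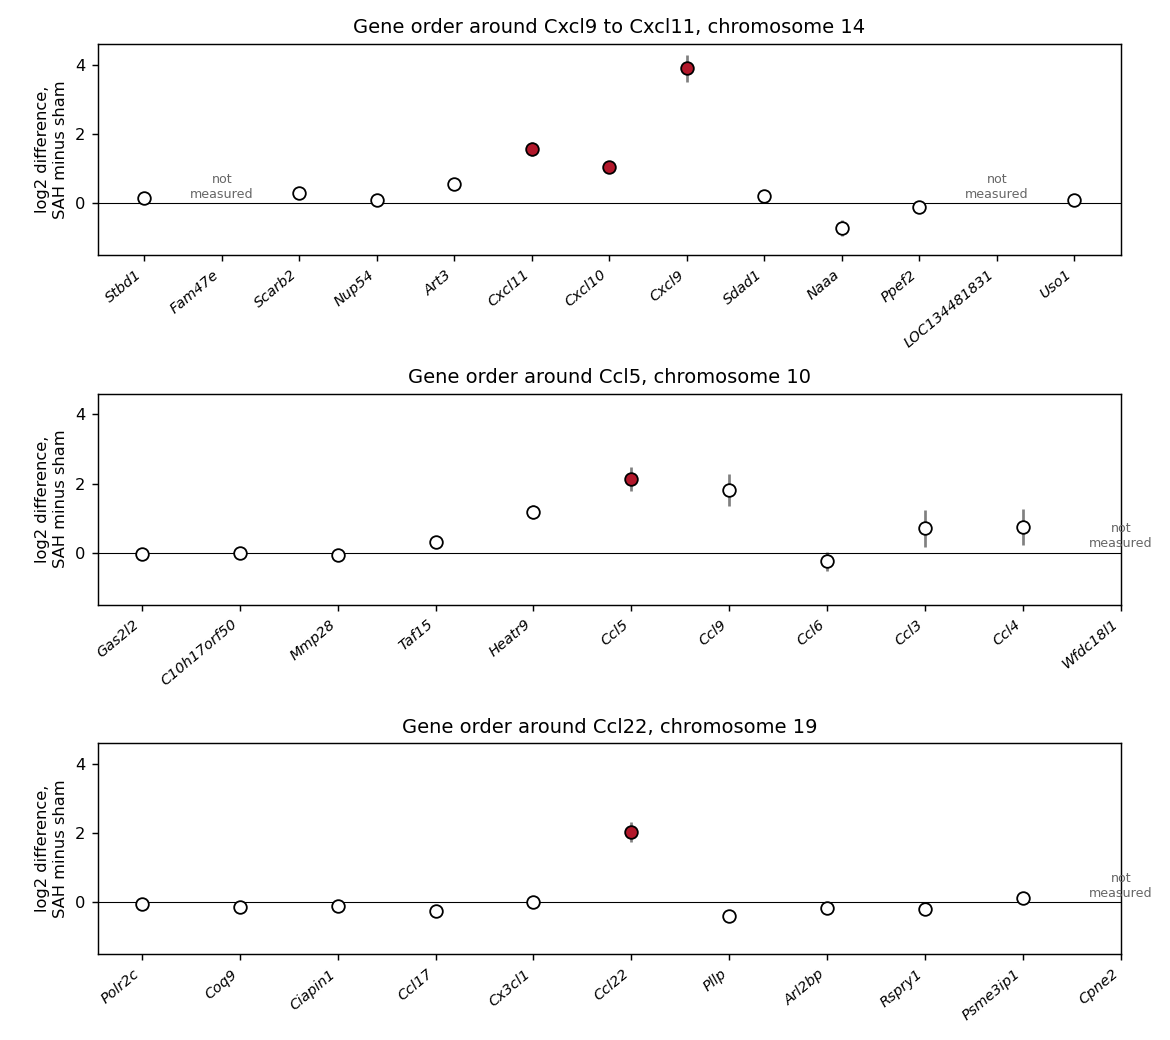
Log2 difference, SAH minus sham (y axis, bars are SE), of the genes in chromosomal order around Cxcl9 to Cxcl11, Ccl5 and Ccl22, with the described genes in red and their 5 neighbours on each side open. The 3 ligand genes of chromosome 14 differ by 1.04 to 3.89, and their neighbours by -0.71 to 0.55.

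Most other chemokine genes did not follow. None of 9 other CXC ligands passed limma's test over all probe sets (0 also at an unadjusted p under 0.05), with a median difference of -0.10. Cxcl13, which attracts B lymphocytes, differed by -0.58 ± 0.35 (SE; limma adjusted p = 0.525), and Cxcl12, a constitutive chemokine of many tissues, by -0.29 ± 0.24 (0.657). Cxcl1 and Cxcl2, which attract neutrophils, differed by -0.47 ± 0.66 and -0.81 ± 0.84, with their highest value of all arrays in sham array 8, at 13.23 and 12.23.

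None of 20 other CC, XC and CX3C ligands passed either, and their median was 0.07. An unadjusted p under 0.05 was found for 3 of the 20, where 18.6% of all genes had one. Ccl19, a ligand of CCR7, read 12.26, 12.68 and 12.34 in the SAH arrays, against 11.57, 11.07 and 11.72 in the sham arrays, a difference of 0.97 ± 0.20 (SE; limma adjusted p = 0.0931). Ccl12, a monocyte attractant in the mouse, went the other way, at 8.81, 8.48 and 7.88 in the SAH arrays, against 10.03, 9.71 and 10.75 in the sham arrays. Its difference was -1.77 ± 0.32 (SE; limma adjusted p = 0.0752), and its groups did not overlap. With dim probe sets left out of the test both passed, and without SAH array 1 Ccl12 passed.

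Among 20 other chemokine receptor genes none passed, and the median difference was 0.21. An unadjusted p under 0.05 was found for 6 of the 20, where 18.6% of all genes had one. The 2 with the smallest p were Ccr7, the receptor of CCL19, at 0.44 ± 0.11, and Gpr35, once proposed as a receptor of CXCL17, at 0.62 ± 0.17 (SE; limma adjusted p = 0.133 and 0.169). The known receptors of the other ligands were set beside them for their ligands and not for their values. Ccr4, the receptor of CCL22, and Cxcr6, the receptor of CXCL16, were dim, below the array median on every array. They differed by 0.23 ± 0.13 and 0.29 ± 0.20 (limma adjusted p = 0.502 and 0.584). Ccr3, a receptor of CCL5, differed by 0.15 ± 0.12 (limma adjusted p = 0.656). It read only 4.45 to 4.86, below the medians of the background control probe sets (5.21 to 5.48), so its difference says little.

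Ccr1, another receptor of CCL5, read 8.84, 9.29 and 9.89 in the SAH arrays, against 6.59, 6.77 and 9.09 in the sham arrays. Sham array 8 lay within the SAH range and apart from the other sham arrays. The difference was 1.86 ± 0.66 (SE; limma adjusted p = 0.266), and without sham array 8 Ccr1 and Ccr2, a monocyte receptor, passed.

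**Figure D4:**
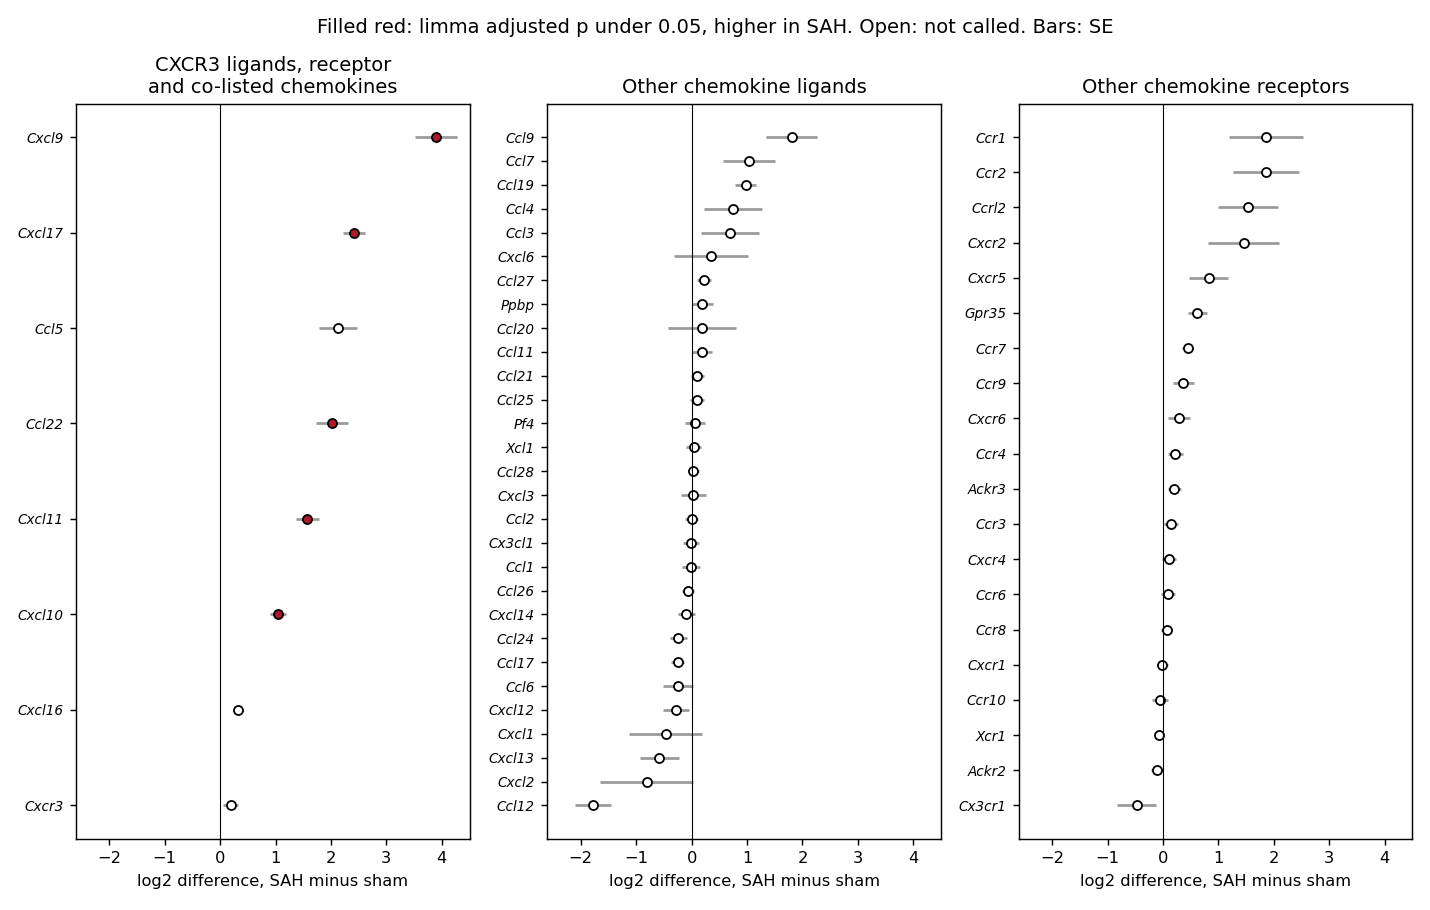
Log2 difference, SAH minus sham (x axis, bars are SE), of the 8 described genes, of 29 other chemokine ligands and of 20 other chemokine receptors, with red points for genes past the limma threshold. Cxcl9 lies farthest right at 3.89, and the other ligands and receptors lie between -1.77 and 1.86, none of them past the threshold.

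The genes that signal to the CXCR3 ligands were unevenly placed. Of 7 measured genes of type I interferon signalling, 3 rose, none fell and 4 did not pass, with a median of 0.07. Among all genes 0.963% rose and 0.33% fell. Irf7, a transcription factor that drives interferon genes, differed by 2.54 ± 0.15, and Stat2 and Irf9, whose products are part of the factor that binds the ISRE, by 1.23 ± 0.11 and 0.89 ± 0.10 (SE; limma adjusted p = 0.00221, 0.00786 and 0.0180). Irf7 kept its call with each array left out. Stat2 lost its call without SAH array 4 (0.0597) or sham array 6 (0.0682), and Irf9 in each fit without an array other than SAH array 1 (0.0678 to 0.123). Ifnb1, interferon beta, was dim and differed by -0.08 ± 0.09 (limma adjusted p = 0.764).

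Of 14 measured genes of the interferon gamma axis, 1 rose, none fell and 13 did not pass (limma; 4 at an unadjusted p under 0.05). All 14 differences were above 0 (median 0.28). Among all genes 0.963% rose, 18.6% had an unadjusted p under 0.05 and 47.3% had a difference above 0. The gene that rose was Nlrc5, an activator of MHC class I genes, at 10.02, 11.03 and 11.19 in the SAH arrays, against 8.54, 8.52 and 8.89 in the sham arrays. Its difference was 2.10 ± 0.31 (SE; limma adjusted p = 0.0416), and the call ended in each fit without an array other than SAH array 1 (0.0995 to 0.204). Socs1, which restrains JAK signalling, differed by 1.90 ± 0.51 and Ciita, the activator of MHC class II genes, by 0.92 ± 0.28 (SE; limma adjusted p = 0.167 and 0.212), both without overlap. Without SAH array 1 these passed too, and the count of genes that rose was 3. Ifng, interferon gamma itself, read 6.67, 6.69 and 6.57 in the SAH arrays, against 6.65, 6.59 and 6.20 in the sham arrays. It was below the array median throughout and the groups overlapped, with a difference of 0.16 ± 0.14 (SE; limma adjusted p = 0.669). Irf1, a transcription factor downstream of interferon gamma, differed by 0.52 ± 0.32 (SE; limma adjusted p = 0.536).

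None of 9 genes of NF-kappaB factors and their regulators passed (0 also at an unadjusted p under 0.05, limma), with a median of 0.16. Nfkb2 differed by 0.35 ± 0.22 and Chuk, a kinase of the pathway, by 0.11 ± 0.10 (SE; limma adjusted p = 0.534 and 0.691). Nor did any of 13 genes that clip or shed chemokines or build the heparan sulphate that holds them on the vessel wall (5 at an unadjusted p under 0.05; median 0.21). The 2 with the smallest p were Sdc3, a heparan sulphate core protein gene, at -0.50 ± 0.12, and Ext1, which builds heparan sulphate chains, at 0.51 ± 0.13 (SE; limma adjusted p = 0.142 and 0.157). Dpp4, the protease that clips CXCR3 ligands, differed by -0.81 ± 0.39 (0.414). Over all genes 18.6% had an unadjusted p under 0.05.

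Markers of the cells that carry CXCR3 were of mixed level. Of 10 T lymphocyte markers none passed limma's test (5 at an unadjusted p under 0.05), 9 of the 10 differences were above 0 and the median was 0.28. Among all genes 18.6% had an unadjusted p under 0.05 and 47.3% had a difference above 0. In 7 of the 10 the SAH values lay above all sham values, where 11.4% of all genes did. The mean log2 value over this list lay between 7.19 and 7.37 in the SAH arrays. In the sham arrays it lay between 6.95 and 7.18, and both were around the array medians or below. Cd4 and Cd5 were above the array median on all 6 arrays. Cd4 was the marker whose difference was not above 0, at -0.29 ± 0.19 (SE; limma adjusted p = 0.559). Cd3e, a subunit of the T cell receptor complex, was below the array median on every array, at 6.97, 6.67 and 6.67 in the SAH arrays, against 6.60, 6.28 and 6.29 in the sham arrays (limma adjusted p = 0.280).

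Of 9 NK cell markers 1 rose and 8 did not pass (limma; 5 at an unadjusted p under 0.05), with a median of 0.47 and all 9 differences above 0. Among all genes 0.963% rose, 18.6% had an unadjusted p under 0.05 and 47.3% had a difference above 0. In 6 of the 9 the SAH values lay above all sham values, where 11.4% of all genes did. Klrk1, which encodes the activating receptor NKG2D, read 8.82, 9.23 and 9.50 in the SAH arrays, against 7.06, 7.29 and 7.18 in the sham arrays. Its difference was 2.003 ± 0.179 (SE; limma adjusted p = 0.00750), and the call ended without SAH array 4 (0.0638) or sham array 6 (0.0577). Klrd1, a defining NK cell gene, differed by 0.04 ± 0.12 (limma adjusted p = 0.932) and was dim on all arrays. The cytotoxic granule genes Nkg7, Gzma, Prf1 and Gzmb differed by 1.02 ± 0.26, 0.77 ± 0.14, 0.56 ± 0.13 and 0.47 ± 0.15 (SE; limma adjusted p = 0.151, 0.0717, 0.135 and 0.222), each without overlap. Gzma (4.93 to 6.00) and Gzmb (5.13 to 5.93) were below the array median on every array. Both were near the medians of the background control probe sets (5.21 to 5.48). Prf1 was above the array median on 1 array and Nkg7 on 5. Ncr1 and Eomes of the same list differed by 0.08 ± 0.10 and 0.18 ± 0.15 (SE; limma adjusted p = 0.765 and 0.644), with overlap. The mean over the list lay between 6.82 and 7.13 in the SAH arrays and between 6.32 and 6.45 in the sham arrays.

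Neutrophil markers varied along with sham array 8. Relative to the sham means, the median of 9 such genes was 1.11, 0.94 and 2.31 in the SAH arrays, against -0.72, -0.83 and 1.44 in the sham arrays, and none of the 9 passed (limma; 3 at an unadjusted p under 0.05). The mean over the list lay between 9.03 and 10.21 in the SAH arrays and between 7.32 and 9.71 in the sham arrays, so the groups overlapped. In sham array 8, where these markers were high, Cxcl9 and Cxcl17 lay below their sham means, at 8.06 and 8.07, and Ccl5, Ccl22, Cxcl10 and Cxcl11 were at the top of the sham group. The part of neutrophils in the differences of the 8 genes was not tested. Monocyte and macrophage markers had a median of -0.49 with none of 10 called (7 at an unadjusted p under 0.05, limma), and Csf1r, their defining receptor gene, differed by -0.50 ± 0.11 (limma adjusted p = 0.115). In this list 3 of 10 differences were above 0, those of Ccr2 at 1.86 ± 0.59, Cd68 at 0.37 ± 0.18 and Aif1 at 0.21 ± 0.11. Of 7 dendritic cell markers none was called (2 at an unadjusted p under 0.05), with Flt3 at 0.20 ± 0.09 (limma adjusted p = 0.403).

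**Figure D5:**
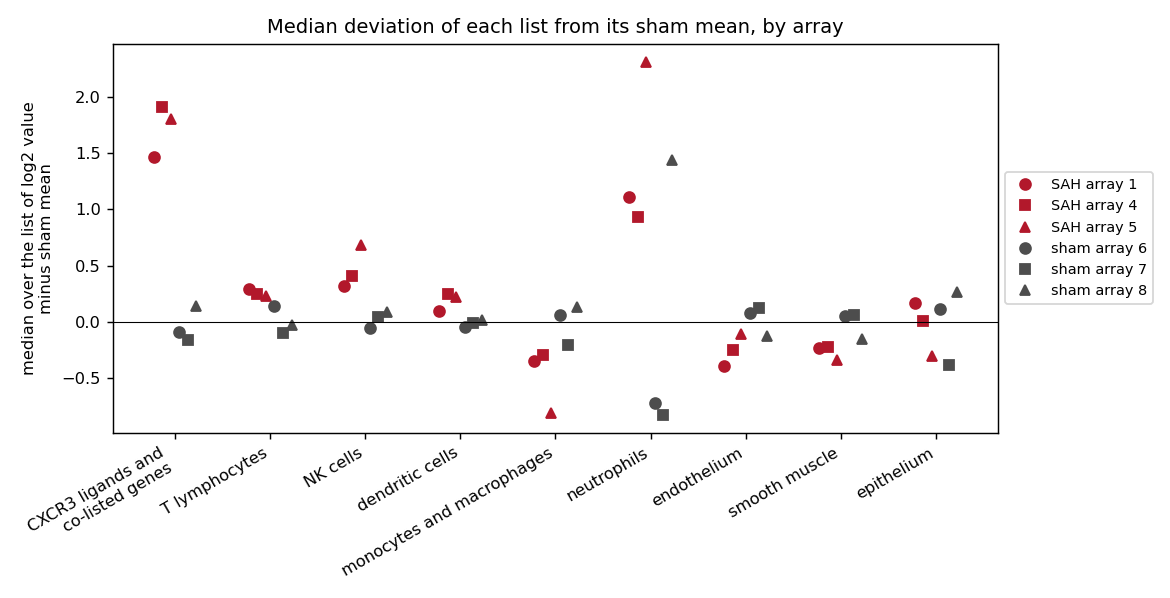
Median over each list of the log2 value less the sham mean (y axis), for the 8 described genes and for cell type marker lists, with red symbols for SAH arrays and grey symbols for sham arrays. The 8 genes separate the groups (1.46 to 1.91 in SAH arrays, -0.16 to 0.14 in sham arrays), while neutrophil markers put sham array 8, at 1.44, among the SAH arrays.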

How the data were processed

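Log2 expression values of 6 arrays were used as the authors deposited them. Per the submitters' processing notes these came from Affymetrix Expression Console 1.1.2 with RMA. Their settings, and the genome build, are not stated in the sources used here. RMA brings arrays to a common distribution, so a general change in RNA content cannot be seen, and it compresses differences of dim and of very bright genes.

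Of 36685 probe sets, 190 were Affymetrix controls and the other 36495 entered the test. The platform annotation from GEO named 1 gene for 18511 probe sets, several for 575 and none for 17409. A gene was represented by its probe set of highest mean. SAH and sham arrays, 3 each, were compared with limma 3.58.1 (R 4.3.3; lmFit, eBayes, two-sided, no covariate), and p-values were adjusted by Benjamini-Hochberg over the tested probe sets. Calls were made at an adjusted p under 0.05. A fold is 2 raised to the log2 difference. The fit was tested on simulated data. The number of arrays limits the precision.

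The 8 genes and all gene lists were chosen with earlier results of these data known. Named were the 8 genes, called list genes, the 2 smallest p in lists without a call, the 5 nearest profiles and defining cell markers. Other genes (neighbours, receptors of the ligands, Ifnb1, Ifng, Irf1, Dpp4, Cxcl1, Cxcl2, Ccl9, Ccr1, Ccr2, Socs1, Ciita, Krt18, Krt8, Cdh1, Cd4, Cd5, Klrk1, Nkg7, Gzma, Prf1, Gzmb, Ncr1, Eomes, Cd68, Aif1, Smtn) were chosen afterwards for their place or role, or after their values were seen. Lists of microglia, astrocyte, oligodendrocyte, neuron, B lymphocyte, erythroid and fibroblast markers held no called gene.

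Alternatives were removal of dim probe sets (those above the array median on fewer than 3 arrays), subtraction of array medians, repeated quantile normalization, array weights, trend and robust options of eBayes, the mean over a gene's probe sets, an adjusted p under 0.10, and each array left out. Promoter sequences are those of RefSeq, GRCr8, which held 7 of the 8 genes. Ccl5 is the other gene.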

Additional observations from a re-analysis of the deposited data

How the results depend on the processing

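No paired analysis was possible because the SAH and sham arrays share no array numbers. The differences of the 8 genes kept their direction under every alternative run and moved by less than 1 SD pooled over both groups, though for some by more than the SD of the tighter group: Cxcl9 ranged from 3.63 to 4.36, Cxcl10 from 0.95 to 1.17, Cxcl11 from 1.45 to 1.80, Cxcl17 from 2.29 to 2.63, Ccl5 from 1.91 to 2.48, Ccl22 from 1.83 to 2.27, Cxcl16 from 0.30 to 0.34 and Cxcr3 from 0.09 to 0.30. Cxcr3 had no value with dim probe sets left out. Leaving out dim probe sets, the eBayes options, the mean over probe sets and the 0.10 threshold cannot alter these differences. For the 7 genes whose groups did not overlap, leaving out an array cannot reverse the direction. The kept direction is therefore a description and adds no support. With an array left out, the number of the 8 past the threshold ran from 1 to 6, that of genes of the pathway lists from 1 to 7 against 4 with all arrays, and that of all genes from 29 to 670 against 235. The count over all genes was 672 with dim probe sets left out, 363 with trend and robust eBayes, 373 with array weights and 530 at an adjusted p under 0.10. Fits without an array have fewer residual degrees of freedom, and without SAH array 1 or sham array 8 the 8 genes still gave 6 calls. Arrays give no read depth, and the number of arrays limits what could be detected.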
